A study of Mus musculus with 3 samples.

Results

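The 10 CC chemokine genes Ccl2, Ccl3, Ccl4, Ccl5, Ccl6, Ccl7, Ccl8, Ccl9, Ccl12 and Ccl22 were chosen by name from the 55536 annotated genes of the tables, and all 10 were found. They were read in 3 libraries of polyadenylated RNA from C57BL/6J mouse macrophages that had been grown from bone marrow precursors, a standard model of primary phagocytes. The cells had met lipid A, the part of bacterial lipopolysaccharide that Toll-like receptor 4 senses, at 100 ng/ml during 12 h. A washout of 12 h and a return to 100 ng/ml over 480 min followed. The 3 libraries, numbered replicates 1, 2 and 3 and made from 1 µg of RNA each, thus form 1 group in which each library had the pre-treatment and the second exposure. The treatment fields of the labels name lipoprotein A, and the written description is followed here. Untreated or once-stimulated cells were not analysed here, so the values are levels and their spread, and no effect of lipid A can be read from them. All labels point to 1 donor record and name no separate animals, so the spread between libraries may be technical.

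CC chemokines are small secreted proteins, named for a pair of adjacent cysteines, that guide leukocytes through G-protein-coupled receptors. Macrophages that sense bacterial products transcribe several of them through NF-κB and interferon-regulated factors, and the proteins call in monocytes, T cells and other leukocytes. Many of these mRNAs carry AU-rich elements in the 3′ untranslated region (3′ UTR), which proteins such as Zfp36 (tristetraprolin) bind to speed decay.

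The members lie in clusters in the mouse genome (mm10, GENCODE M21). On chromosome 11, Ccl2 (chr11:82035571-82037453), Ccl7 (chr11:82045712-82047525), Ccl12 (chr11:82101845-82103400) and Ccl8 (chr11:82115185-82116799) follow one another on the plus strand within 81.2 kb. A second group of 5 members spans 138.9 kb, 1409 kb further on. It holds Ccl5 (chr11:83525778-83530518), Ccl9 (chr11:83572919-83578636), Ccl6 (chr11:83587882-83593087) and Ccl3 (chr11:83647844-83649355) on the minus strand and Ccl4 (chr11:83662584-83664683) on the plus strand. Ccl22 stands apart on chromosome 8 (chr8:94745590-94751699, plus strand). The pairs most alike in coding sequence were neighbours: Ccl12 and Ccl8 (70.8% of aligned bases), Ccl9 and Ccl6 (70.4%) and Ccl3 and Ccl4 (70.0%). Other neighbouring members ran from 59.3% for Ccl5 and Ccl9 to 68.4% for Ccl7 and Ccl12. Ccl2 and Ccl8, which are not side by side, reached 67.5%. No stretch of 31 bases was shared between transcripts of different members.

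RefSeq promoter sequences (GRCm38.p6, the assembly of mm10) were found for 6 members, Ccl3, Ccl6, Ccl8, Ccl9, Ccl12 and Ccl22. Those of 2 neighbouring pairs are printed, 250 bases before the start site each. In the first of 2 quantifications of the reads, Ccl9 and Ccl6 had the most alike levels across the libraries. Ccl12 and Ccl8 did not follow each other, and the 2 pairs were chosen for this contrast. Capitals mark matches to TATAAA (the TATA box), TGANTCA (AP-1), GGGNNNTTCC (an NF-κB site) or GAGGAAG (PU.1), searched on both strands.

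Ccl12, chr11:82101595-82101844, plus strand: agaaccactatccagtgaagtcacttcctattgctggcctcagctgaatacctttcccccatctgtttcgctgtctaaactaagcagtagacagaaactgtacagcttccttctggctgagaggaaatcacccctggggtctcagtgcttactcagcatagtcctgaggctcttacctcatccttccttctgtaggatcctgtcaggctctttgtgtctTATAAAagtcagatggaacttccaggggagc
Ccl8, chr11:82114935-82115184, plus strand: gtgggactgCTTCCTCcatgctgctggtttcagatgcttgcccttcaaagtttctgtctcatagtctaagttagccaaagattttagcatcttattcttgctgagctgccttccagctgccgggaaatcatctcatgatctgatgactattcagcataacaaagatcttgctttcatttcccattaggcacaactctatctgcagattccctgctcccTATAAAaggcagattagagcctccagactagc
Ccl9, chr11:83578637-83578886, minus strand: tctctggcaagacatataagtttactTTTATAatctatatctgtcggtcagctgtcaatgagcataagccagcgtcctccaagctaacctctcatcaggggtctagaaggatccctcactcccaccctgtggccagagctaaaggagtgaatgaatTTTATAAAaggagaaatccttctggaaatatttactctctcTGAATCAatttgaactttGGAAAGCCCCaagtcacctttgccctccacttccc
Ccl6, chr11:83593088-83593337, minus strand: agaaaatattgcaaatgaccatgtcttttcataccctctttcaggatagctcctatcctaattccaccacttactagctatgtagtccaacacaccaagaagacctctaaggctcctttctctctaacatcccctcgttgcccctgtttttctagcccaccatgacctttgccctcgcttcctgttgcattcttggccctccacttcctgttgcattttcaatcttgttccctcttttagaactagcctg

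TATAAA began 31 bases before the start site in Ccl12 and 32 bases before it in Ccl8. It was found in 3 of the 6 members, Ccl12, Ccl8 and Ccl9, and in 12.3% of 32544 promoters of the same length. In Ccl9 the matches on either strand lay farther from the start site, beginning 224, 94 and 92 bases before it. The NF-κB and AP-1 letters were found in Ccl9 (4.65% and 6.73% of all promoters), and the PU.1 letters in Ccl8 (10.7%). GAAANNGAAA, the letters of an interferon-stimulated response element, was in 2.98% of promoters and in 0 of the 6 members. In Ccl9 TATAAA and its reverse complement overlapped at 1 place. The aligned bases of these windows were 63.4% identical between Ccl12 and Ccl8 and 56.3% between Ccl9 and Ccl6. Over all pairs of the 6 windows, identity ran from 50.0% for Ccl22 and Ccl12 to 66.3% for Ccl6 and Ccl3. Pairs from different places reached similar values, such as Ccl8 and Ccl6 (63.4%) and Ccl22 and Ccl9 (57.2%). The matches are letters in a window and show no binding.

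The AU pentamer ATTTA, the core of AU-rich elements, differed in number between the members' 3′ UTRs. Windows of 30 bases from GENCODE M21 transcripts are shown for Ccl12 and Ccl3, which had the most pentamers per base, with pentamers in capitals.

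Ccl12, bases 92 to 121 of the 3′ UTR: ATTTAaacaaacttgcttaaataatATTTA
Ccl3, bases 149 to 178: ttgaaattttATTTAATTTAatcctattgg

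Ccl12 held 5 pentamers in 167 bases, Ccl3 5 in 409 bases and Ccl4 2 in 302 bases. Ccl9 held 5 in its 2465 bases, Ccl6 4 in 943, Ccl7 2 in 435, Ccl22 2 in 1813 and Ccl2 1 in 275. Ccl5 and Ccl8, with the short 3′ UTRs of 199 and 165 bases, held 0. At least 1 pentamer was thus present in 8 of 10 members, beside 64.9% of 9989 detected protein-coding genes, and 3 or more in 4 of 10 members, beside 32.6%. The longer nonamer form of the element was in 0 of 10 members and in 6.75% of the detected genes.

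The libraries differed in depth and make-up. Expected counts totalled 24596382 in replicate 1, 54016971 in replicate 2 and 43127749 in replicate 3. Replicate 2 stood apart, with 6.86% of its counts on mitochondrially encoded mRNAs against 1.06% and 1.13% in replicates 1 and 3, and with 0.232% on ribosomal RNA genes against 3.21% and 1.97%. Of the macrophage markers, 8 of 8 were above 1 TPM in each library, with summed levels of 15402, 13482 and 16732 TPM in replicates 1, 2 and 3, led by lysozyme Lyz2. They did not move together: Cd14 (381, 100 and 509 TPM) and Fcgr1 (741, 329 and 720 TPM) were lowest in replicate 2, and Cd68 (1980, 3862 and 2063 TPM) was highest there. Of the 8, 5 were lowest in replicate 2, beside 58.5% of the detected protein-coding genes. TPM values are transcript abundances corrected for transcript length and depth, and are given as mean ± SD (n = 3) or per library.

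CC chemokine mRNA was abundant and rested largely on Ccl5. The 10 members summed to 44632 TPM in replicate 1, 12661 in replicate 2 and 36245 in replicate 3, so that replicate 2 lay far below the others. Ccl5 made up 73.8%, 48.7% and 81.6% of these sums. Without Ccl5 the other 9 summed to 11708, 6493 and 6658 TPM, and the sum of replicate 2 was then close to that of replicate 3. Of these 9, Ccl3 (2350 against 970 TPM) and Ccl12 (525 against 453 TPM) were higher in replicate 2 than in replicate 3. The rest were lower in replicate 2. In bulk RNA, fewer cells making a transcript and less of it in each cell cannot be told apart.

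**Figure D1:**
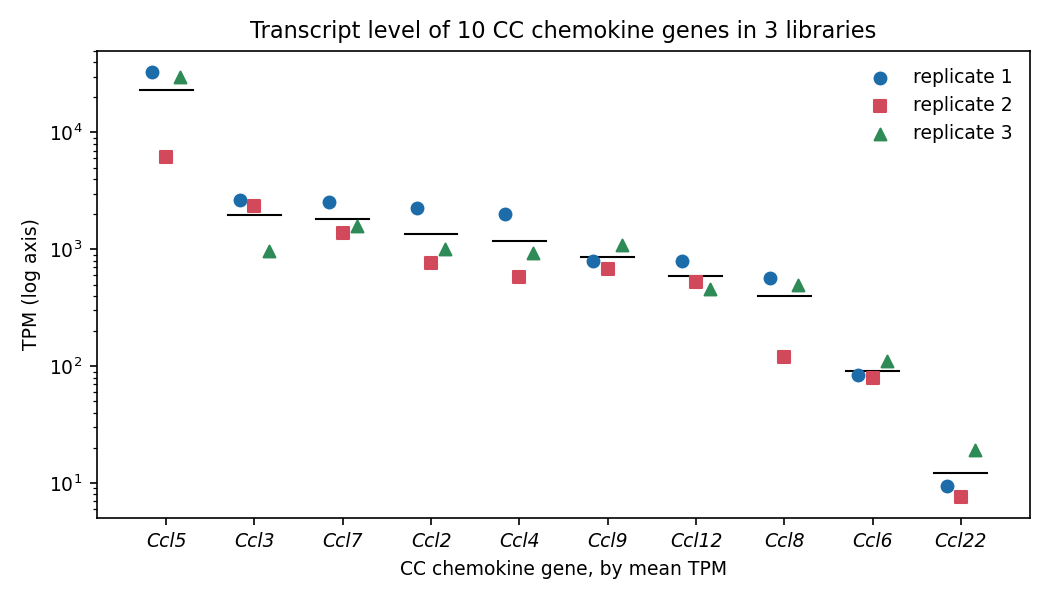
TPM of each gene (log axis) in replicates 1, 2 and 3, with a line at the mean, in the order of means. Ccl5 stands at 6168 to 32924 TPM and Ccl22 at 7.66 to 19.2 TPM, with the other 8 genes between.

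The inflammatory chemokines Ccl5, Ccl3 and Ccl4 were all among the 5 members with the highest means. Ccl5 (RANTES), which attracts T cells and monocytes and binds Ccr1, was read at 32924 TPM in replicate 1, 6168 in replicate 2 and 29588 in replicate 3 (22893 ± 14580). Replicates 1 and 3 lay close together and replicate 2 lay 5.34-fold under the highest. The same order held without length correction, at 0.631%, 0.150% and 0.542% of all counts. A second quantification of the same reads gave 22001, 5996 and 27412 TPM, so replicate 3 was highest there and replicate 2 again lowest. By its mean Ccl5 was number 2 of 10337 nuclear protein-coding genes, and in replicate 2 alone it was number 8. The mean without replicate 2 was 31256 TPM.

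Ccl3 (MIP-1α), which attracts monocytes and other leukocytes through Ccr1, was read at 2634, 2350 and 970 TPM in replicates 1, 2 and 3 (1985 ± 890). Here replicate 3 was the low library, and replicate 2 lay with replicate 1. Ccl4 (MIP-1β), an attractant of T cells and monocytes encoded beside Ccl3, was read at 2024, 580 and 931 TPM (1178 ± 753), with replicate 1 above both others. In these values the neighbours Ccl3 and Ccl4 were both highest in replicate 1. The second quantification read Ccl3 at 1771, 2301 and 954 TPM, so its highest library there was replicate 2. The neighbours differed in replicate 2, where Ccl3 exceeded Ccl4 by 2.02 log2 units, against 0.38 and 0.06 in replicates 1 and 3.

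The group around Ccl2 was led by Ccl7 and Ccl2, which draw monocytes through the receptor Ccr2. Ccl7 (MCP-3) was read at 2532, 1387 and 1578 TPM in replicates 1, 2 and 3 (1832 ± 613). Ccl2 (MCP-1) was read at 2258, 760 and 1010 TPM (1343 ± 803). Both were highest in replicate 1, with replicates 2 and 3 near each other.

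Ccl12 (MCP-5), a further Ccr2 ligand of the mouse, was read at 795, 525 and 453 TPM (591 ± 180). Ccl8 (MCP-2), in the mouse a ligand of Ccr8, was read at 570, 120 and 496 TPM (395 ± 241). Ccl12 fell within a 1.75-fold range, while Ccl8 was 4.76-fold lower in replicate 2 than in replicate 1. The order of these neighbours changed, since Ccl12 exceeded Ccl8 by 0.48 and 2.13 log2 units in replicates 1 and 2 and lay under it in replicate 3, at -0.13.

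Ccl9 and Ccl6, related Ccr1 ligands of rodents made by myeloid cells, varied little in the first quantification. Ccl9 (MIP-1γ) was read at 802, 685 and 1089 TPM (858 ± 208), and Ccl6 at 84.6, 79.9 and 111 TPM (91.7 ± 16.6). Both were highest in replicate 3. The second quantification read Ccl9 at 897 ± 293 TPM and Ccl6 at 92.6 ± 25.2 TPM. There Ccl7 (1523 ± 181 TPM) and Ccl12 (500 ± 55.3 TPM) spread less for their means. In the first quantification, Ccl9 over Ccl6 had the smallest SD of all pairs of members, close to that of Ccl5 over Ccl8 (0.11). Ccl9 exceeded Ccl6 by 3.24, 3.10 and 3.30 log2 units (mean 3.21 ± 0.10). In the second quantification, Ccl9 was lower in replicate 2 than in replicate 1 (709 against 747 TPM). Ccl6 was higher there (84.9 against 72.1 TPM).

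Ccl22 (MDC), which draws regulatory T cells through Ccr4 and is best known from dendritic cells and alternatively activated macrophages, was the lowest member. It was read at 9.36, 7.66 and 19.2 TPM in replicates 1, 2 and 3 (12.1 ± 6.24), from 312, 635 and 1166 counts. Replicate 3 stood above the others. By its mean it was number 5770 of 10337 genes, beside a median of 15.1 TPM for detected protein-coding genes.

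The order of the members was loose among neighbours. A pair was called separated where its log2 ratio had 1 sign in the 3 libraries and a mean over 3 SD. Of the 9 pairs of neighbours by mean level, 6 had 1 sign and 1 was separated, Ccl6 over Ccl22 (3.02 ± 0.44 log2 units). Ccl5 over Ccl3 had 1 sign but ranged from 1.39 in replicate 2 to 4.93 in replicate 3 (3.32 ± 1.79). The neighbours Ccl3 and Ccl7, Ccl4 and Ccl9, and Ccl12 and Ccl8 changed order between libraries. Of all 45 pairs, 39 had 1 sign and 24 were separated.

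Several members spread widely between libraries. The SD of log2(TPM + 1) was largest for Ccl5 (1.35) and Ccl8 (1.24), followed by Ccl4 (0.91), Ccl2 (0.81), Ccl3 (0.79), Ccl22 (0.64), Ccl7 (0.46), Ccl12 (0.42), Ccl9 (0.34) and Ccl6 (0.25). The members' median was 0.72 and that of the detected protein-coding genes 0.37. An SD over 0.5 was found in 6 of 10 members and in 33.5% of 10350 detected genes. The lowest TPM fell in replicate 2 for 8 of 10 members, and for 58.5% of the detected genes. The exceptions were Ccl3 and Ccl12, which were lowest in replicate 3. This count holds for the first quantification only. In the second, Ccl6 (72.1, 84.9 and 121 TPM) and Ccl22 (5.95, 7.57 and 16.2 TPM) were lowest in replicate 1 instead.

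Each library's deviation from a gene's mean was then centred on the median deviation of the detected genes (0.05, -0.20 and 0.14 log2 units in replicates 1, 2 and 3). The members' median deviation became 0.47 in replicate 1, -0.22 in replicate 2 and -0.07 in replicate 3, and 5 of 10 members, beside 42.2% of the detected genes, were then lowest in replicate 2. That count was 3 of 10, beside 42.7% of the detected genes, on log2 CPM with TMM library sizes and 4 of 10 with a pseudocount of 0.1, so it fell on both sides of the background. Replicate 2 stood at -1.36 for Ccl5 and -1.23 for Ccl8, at -0.63 for Ccl4 and -0.46 for Ccl2, and at 0.57 for Ccl3. Ccl5 and Ccl8 thus deviated most. With mitochondrial and ribosomal RNA genes left out of the scaling, replicate 2 stood at -1.34 for Ccl5 and -1.21 for Ccl8. The higher mitochondrial share of replicate 2 went with these low values, and its part in the levels beyond this scaling was not tested.

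**Figure D2:**
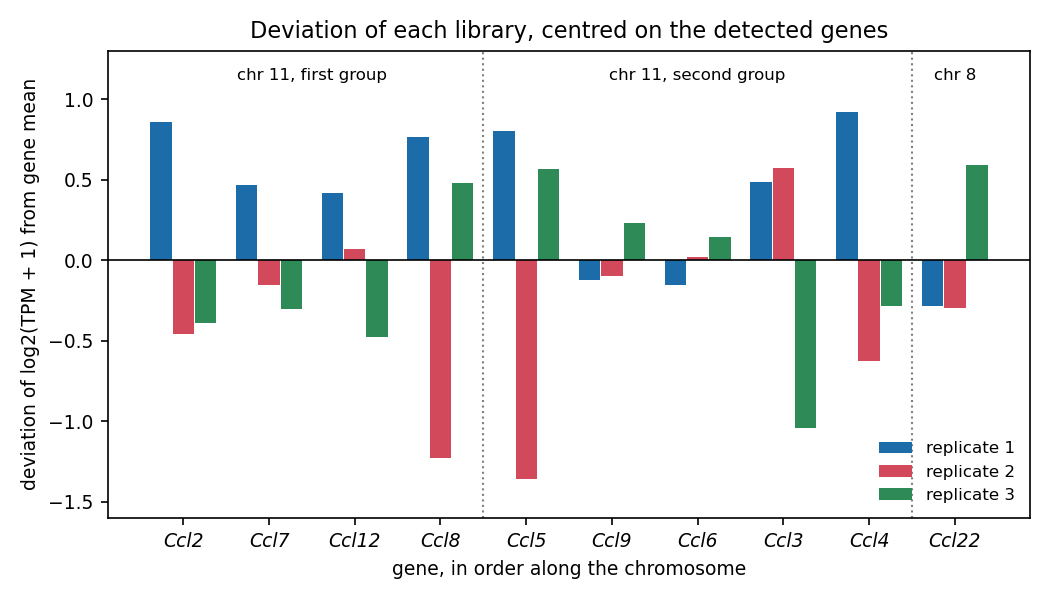
Deviation of log2(TPM + 1) of each library from the gene's mean, after centring on the detected genes, for the 10 genes in order along chromosomes 11 and 8. Ccl8 and Ccl5 are low in replicate 2 (-1.23 and -1.36), Ccl3 is low in replicate 3 (-1.04), and Ccl9 and Ccl6 stay near 0.

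Members with alike profiles were not always neighbours. Distances were taken between the 3 centred values of the first quantification. The closest pairs were Ccl9 and Ccl6 (0.15 log2 units), Ccl5 and Ccl8 (0.16), Ccl2 and Ccl4 (0.21) and Ccl7 and Ccl12 (0.29). Ccl9 and Ccl6 lie side by side and Ccl7 and Ccl12 are in 1 group, whereas the other pairs join genes of both groups on chromosome 11. Ccl5 and Ccl3, of the same group, were farthest apart (2.53). Ccl5 exceeded Ccl8 by 5.85, 5.68 and 5.90 log2 units, a nearly fixed ratio (5.81 ± 0.11).

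Ccl5 was also the member with the largest SD. Among 6261 protein-coding genes at a mean of 10 TPM or more, the 3 nearest to it were Slc12a9, a cation-chloride cotransporter family member (31.0, 4.91 and 28.3 TPM), the surface protein Ly6a (658, 128 and 605 TPM) and Oaz1, the antizyme that restrains polyamine synthesis (320, 61.8 and 300 TPM). All 3 were low in replicate 2, at distances of 0.03 to 0.05. Within 0.5 log2 units lay 225 genes, and over 3 libraries such likeness is a description. The gene nearest to Ccl4 was Ccrl2, a non-signalling chemokine receptor, at 249, 72.3 and 112 TPM (distance 0.04).

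The pentamer counts were set beside the level in replicate 2. The 2 members with 0 pentamers had a median deviation of -1.29 there and the 8 others -0.13. Across the 10 members, pentamers per 100 bases and the deviation in replicate 2 had a Spearman correlation of 0.72, and across 9989 detected genes 0.22. Detected genes with 0 pentamers had a median deviation of -0.19 and those with at least 1 of 0.07. At 1 or more pentamers per 100 bases, the range of Ccl3 and Ccl12, the median over 136 detected genes was -0.09, so the order over all genes did not go on into that range. The points share the libraries and the sequence set, and transcript length moved too: coding plus 3′ UTR length and the same deviation had correlations of 0.43 over the members and 0.31 over the detected genes. The part of length in the pattern was not tested. Correlations were computed for replicate 2 only, the library in which Ccl5 and Ccl8 were low. In replicate 3, Ccl5 and Ccl8 stood at 0.56 and 0.48 and Ccl3 and Ccl12 at -1.04 and -0.48.

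**Figure D3:**
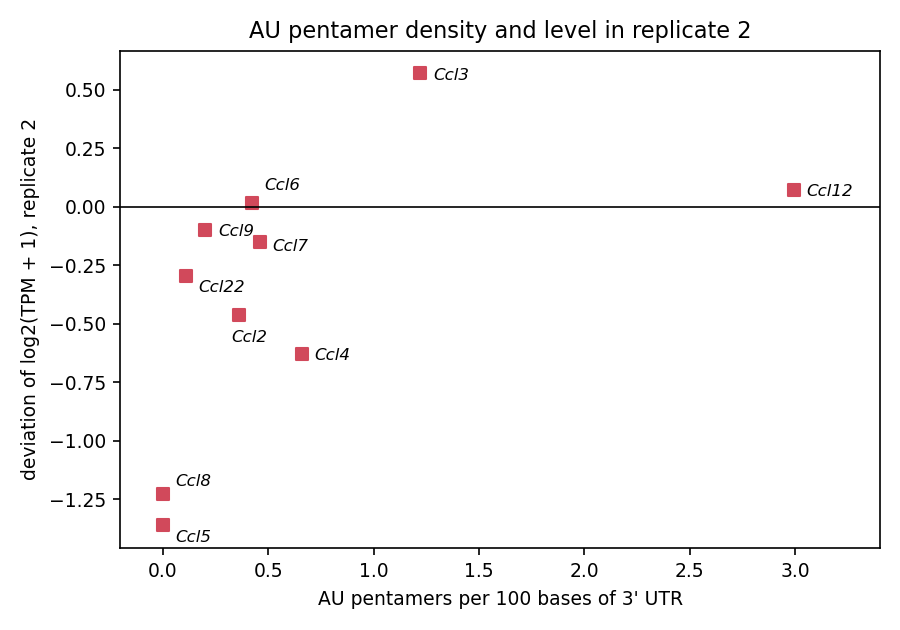
AU pentamers (ATTTA) per 100 bases of 3′ UTR against the centred deviation of log2(TPM + 1) in replicate 2, 1 point per gene. Ccl5 and Ccl8, at 0 pentamers, are lowest, and Ccl3, at 1.22 per 100 bases, is highest, while Ccl12 has the most pentamers (2.99) and lies near 0 (0.07).

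Whether the libraries differed beyond counting noise was tested on the counts. With a chi-square test on TMM-scaled library sizes, 10491 of 11932 genes (87.9%) differed at an adjusted p under 0.05, and so did 10 of 10 members, a count near the background. Ccl6, from 1620, 4009 and 4004 counts, had the weakest call (chi-square 78.6, Benjamini-Hochberg adjusted p of the chi-square test across all genes 1.75e-17). The call of Ccl6 was lost without replicate 1 (adjusted p = 0.623) and that of Ccl22 without replicate 3 (adjusted p = 0.509). This test compares libraries, and PCR reads are not independent molecules.

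No member passed the test of its spread against that usual for genes of like abundance. By edgeR's quasi-likelihood fit, a gene's variance over the trend was called in 0 of 11932 genes (0.0%) and in 0 of 10 members, with 503 genes and 0 members at an unadjusted p under 0.05. The ratio of variance to trend had a median of 2.63 in the members and 0.84 in all genes. It was highest in Ccl8 (5.94, unadjusted p = 0.055, adjusted p = 0.933 by edgeR), Ccl3 (4.70) and Ccl4 (4.04), and lowest in Ccl9 (0.10). DESeq2's size factors gave 0 calls as well. The lowest adjusted p of any gene was 0.933 by edgeR, and the trend was fitted on the same 3 libraries. The lack of calls therefore does not show that the members' spread is usual.

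At the level of genes, reads of the members were assigned with little doubt by 1 of the quantifications. In the first quantification each member had whole counts and a posterior SD of the count of 0 in each library, so that quantification divided no read of theirs with another gene. In the second quantification the counts of Ccl9 were not whole in replicates 2 and 3 (39792.7 and 47945.6). Ccl9 had 3.75% of its 31-base stretches in common with other genes, Ccl6 1.02%, Ccl5 0.539% and the other 7 members 0%. The second quantification of the same reads was compared by limma on log2(TPM + 1): 169 of 10203 genes (1.66%) differed by at least 1 log2 unit at an adjusted p under 0.05, and 0 of 10 members did. The members' differences, second minus first, ran from -0.27 in Ccl22 to 0.04 in Ccl9. In replicate 1 the second quantification was lower for all 10, with a median ratio of 0.676 beside 0.719 for the detected genes. In replicates 2 and 3 the members' median ratio was 0.983 and 0.946. For Ccl2 in replicate 1 this meant 1494 against 2258 TPM.

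**Figure D4:**
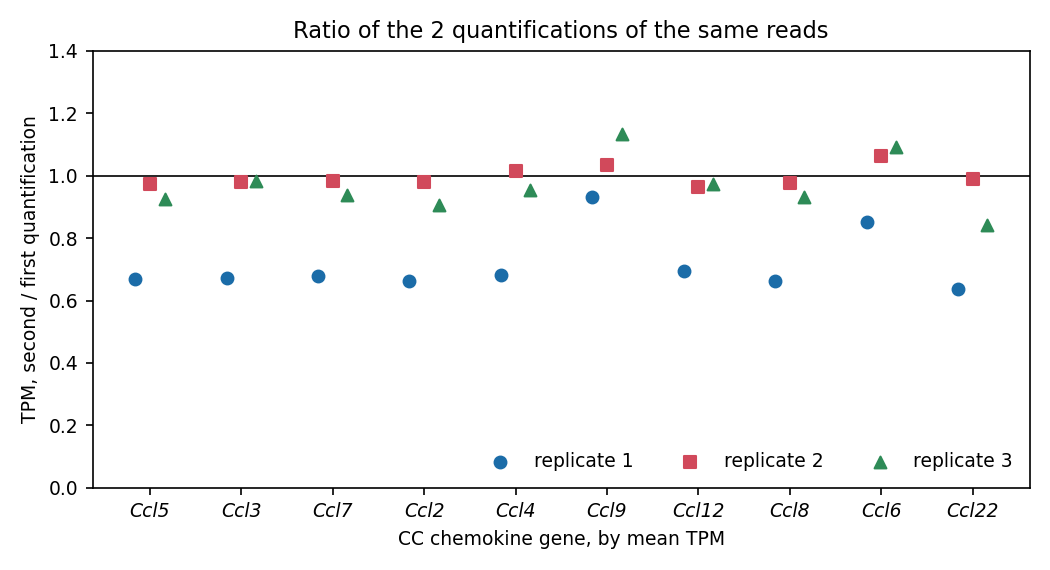
TPM of the second over that of the first quantification for each gene in replicates 1, 2 and 3, with a line at 1. Replicate 1 is below 1 for each gene (median 0.676), with Ccl9 and Ccl6 nearest to 1.

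The quantifications split the members' reads among annotated transcripts. The members have 17 annotated transcripts, and 4 members have 1. The protein-coding Ccl9 transcript of 3006 bases was read at 373, 305 and 485 TPM, and a noncoding processed transcript of 398 bases at 428, 379 and 604 TPM. The short transcript exceeded the long one per length in each library, on 5.90%, 7.49% and 5.56% of the gene's counts, so the level of Ccl9 rests in large part on a small share of its reads over a short sequence. In Ccl6, an intron-retaining transcript was read at 6.82 TPM in replicate 1 and at 0.35 and 0 TPM in replicates 2 and 3. The second quantification gave it 28.8, 2.56 and 35.1 TPM, so the 2 disagreed most in replicate 3, and the transcript's level is uncertain. The intron-retaining transcript of Ccl5 was read at 148, 63.0 and 50.3 TPM, against 32775, 6105 and 29537 TPM for the coding one, so the coding transcript carried the low value of replicate 2. That of Ccl2 made up 0.69%, 1.20% and 0.62% of the gene's TPM.

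The rest of the ligand family was low or at 0 counts. Of 14 other CC chemokines listed, 13 were found. Ccl25, known from thymus and small intestine, was above 1 TPM in each library (5.80, 4.82 and 7.06 TPM). Ccl24 (eotaxin-2) was at 0.57, 1.88 and 1.46 TPM, so 1 library was under 1 TPM. Ccl27a, Ccl28 and Ccl11 had 0 to 4 counts per library. The other 8 had 0 counts in each library. A count of 0 allows 3 counts, which for Ccl17, the other ligand of Ccr4, is up to 0.680 TPM in replicate 1, and for Ccl20 up to 0.239 TPM. For Ccl26, Ccl21b and Ccl27b it is up to 2.99, 1.15 and 1.01 TPM there, so a level under 1 TPM is not shown for them in that library. Floors cover counting error only.

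Receptor mRNA other than that of Ccrl2 was low beside all members but Ccl22. Of 15 receptors and decoys, 5 were above 1 TPM in each library, led by Ccrl2 (249, 72.3 and 112 TPM). By mean Ccrl2 (144 TPM) lay above the members Ccl6 (91.7 TPM) and Ccl22 (12.1 TPM). Ccr1, shared by Ccl3, Ccl5, Ccl6 and Ccl9, was at 8.58, 5.44 and 8.86 TPM. Ccr2, the receptor of Ccl2, Ccl7 and Ccl12, was at 2.06, 2.36 and 1.81 TPM. Counts of Ccr2 were not whole, so some of its reads were divided with other genes. Ccr7, which guides cells to lymph nodes, was at 3.31, 1.90 and 2.14 TPM, and Ccr3 at 0.80, 1.29 and 0.61 TPM. Ccr8 and Ccr4, the receptors of Ccl8 and Ccl22, had 0 counts in each library, which allows up to 0.192 and 0.140 TPM in replicate 1.

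Genes upstream of chemokine transcription were measured next. All 10 listed upstream genes were above 1 TPM in each library. Irf5 (261, 131 and 227 TPM), the adaptor Myd88 (159, 101 and 156 TPM) and the NF-κB subunit gene Nfkb1 (115, 53.5 and 91.1 TPM) were lowest in replicate 2. Of the 10, 6 were lowest in replicate 2, a share near the 58.5% of all detected genes. The NF-κB subunit Rela (44.7, 153 and 37.8 TPM) and the NF-κB cofactor Nfkbiz (49.1, 71.5 and 47.1 TPM) were highest in that library. Beside the library totals, the Rela counts (1700, 4995 and 2565) rose less in replicate 2 than its TPM. For Rela, 3 counts stood for 0.0788, 0.0920 and 0.0442 TPM, and for Nfkbiz 0.0537, 0.0214 and 0.0294 TPM. Part of the Rela TPM in replicate 2 thus came from the length correction.

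All 8 listed genes of mRNA decay and stability were above 1 TPM in each library. Hnrnpd, an AU-element binding protein, was at 124, 208 and 159 TPM. Zfp36, which recruits the deadenylation machinery to AU-rich elements, was at 132, 89.8 and 98.7 TPM, and its relatives Zfp36l2 and Zfp36l1 at 79.6, 76.4 and 74.2 TPM and at 15.9, 47.5 and 20.4 TPM. Zfp36l1 was thus highest and Zfp36 lowest in replicate 2. The stabilising protein Elavl1 (HuR) was at 40.3, 32.6 and 40.9 TPM and the endonuclease Zc3h12a (Regnase-1) at 41.2, 14.5 and 33.3 TPM. Dpp4, a peptidase that trims the amino terminus of several chemokines, was at 0.08, 0.38 and 0.11 TPM.

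Cells of other types could add chemokine mRNA, so their markers were read. Of 12 T and NK cell markers, which include products of cells that also make Ccl5, Cd4 was above 1 TPM in each library (20.0, 113 and 33.6 TPM) and Gzmb in replicate 2 (2.89 TPM). The list summed to 20.1, 116 and 33.8 TPM in replicates 1, 2 and 3, nearly all of it Cd4. Nkg7 had 0 counts in each library, and Cd3e had 0, 10 and 0. Of 8 dendritic cell markers, a cell type known for Ccl22, Ccr7 was above 1 TPM in each library and Clec10a in replicates 1 and 3 (2.19, 0.82 and 2.58 TPM), and the list summed to 6.52, 3.28 and 5.62 TPM, with Cd209a at 0 counts. The neutrophil list (8 genes) summed to 2.21, 12.5 and 2.88 TPM, with S100a8 above 1 TPM in each library (1.27, 6.91 and 2.45 TPM), Ngp at 4.97 TPM in replicate 2 and Ly6g at 0 counts. The B cell list (5 genes) summed to 1.60, 1.86 and 3.22 TPM, nearly all of it Cd79b (1.59, 1.76 and 3.22 TPM), and mast cell and fibroblast markers (6 each) had 0 genes above 1 TPM.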

How the data were processed

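Per the notes deposited with the files, 2 quantifications were made for each of 3 libraries against mm10 and GENCODE M21: one from transcriptome alignments, one from reads and an index. Tools, aligner and strandedness: not given in the sources used here. Per the file headers, the deposited tables hold expected counts, which share reads among transcripts and need not be whole, and TPM, scaled by effective length. Per the file headers, deposited transcript tables add a percent, the transcript's part of the gene's TPM, and gene tables a posterior SD of the count. Depth is given above. Another 26345 entries of the deposited gene tables that are no annotated gene (0.0464% to 0.0875% of counts) were left out of tests.

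Expected counts were rounded. edgeR 4.0.16 (filterByExpr, TMM, quasi-likelihood fit with an intercept, one-sided F test over the trended prior), a chi-square test of homogeneity, limma 3.58.1 and, as an alternative, DESeq2 1.42.0 (R 4.3.3) were run on whole tables with Benjamini-Hochberg adjustment at 0.05, and checked on simulated data. Deviations used log2(TPM + 1) and ratios log2(TPM + 0.1). Detected means at least 1 TPM in at least 1 library, over protein-coding genes (10350, of which 10337 nuclear). Promoters were RefSeq's and 3′ UTRs the GENCODE transcripts'; alignments used Biopython 1.88. The genes named were the 10 members, up to 6 highest of each list of related genes and any such gene above 1 TPM in 1 or 2 libraries, marker genes, and the 3 genes most like Ccl5; Ccrl2 as nearest to Ccl4 was picked after its values were seen. Some listed genes and 1 sequence are not reported here. Members, lists and rules were chosen with earlier results of these data known. Alternatives were other scalings, filters, pseudocounts, the second quantification and leaving out each library.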

Additional observations from a re-analysis of the deposited data

How the results depend on the processing

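No paired analysis was possible because the 3 libraries form 1 group. Genes with variance above the trend rose from 0 to 64 without a filter on low counts, and lay between 7 and 20 with 1 library left out (20 without replicate 1, 7 without replicate 2, 11 without replicate 3), with 0 members called under each setting. Genes beyond counting noise fell from 10491 to 6695 without replicate 2, and lay between 6695 and 9696 with 1 library left out, where 9 or 10 members were called. Genes differing between the quantifications went from 169 to 258 with a pseudocount of 0.1 and to 0 with no filter on low values (limma), and lay between 177 and 200 with 1 library left out. The cause of these changes was not tested. The difference between quantifications changed sign with 1 library left out for Ccl6 (-0.070 to 0.10) and Ccl9 (-0.026 to 0.12), neither of them called. Without replicate 1 the mean level fell from 1178 to 755 TPM for Ccl4 and from 1343 to 885 TPM for Ccl2, and no other alternative moved a member's level by over 1.5 times. In CPM of expected counts, which are not corrected for length, Ccl9 stood above Ccl4 (log2 ratio -1.42) and Ccl6 above Ccl8 (-0.33). The number of libraries, 3 from 1 donor record, limits each statement. Ccl22, at 312 to 1166 counts, had the least depth.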
